A study of Mus musculus with 22 samples.

Results

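In mouse embryonic stem cells with both Mtf2 copies disrupted by a trapping cassette, the regions that still carried the repressive histone mark H3K27me3 were split by whether the enzyme that writes the mark, EZH2, was still called inside them. A domain is 1 region of the gene-trap H3K27me3 peak list, and it was counted as holding EZH2 when a peak of the gene-trap EZH2 list overlapped it by at least 1 bp. Of 963 gene-trap H3K27me3 domains, 224 held EZH2 and 739 did not, a share of 23.3% with EZH2 (95% interval 20.6% to 26.1%). Of 840 gene-trap EZH2 peaks, 790 lay in a domain. The 224 domains with EZH2 were wide, with a median of 8728 bp against 2518 bp for the 739 without, and they held 50.7% of all bases under H3K27me3.

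The cells were Mtf2 GT/GT embryonic stem cells, in which a trapping cassette interrupts the Mtf2 coding sequence, and wild-type E14 embryonic stem cells, both grown in serum with LIF. ChIP-seq of EZH2 and H3K27me3 with the same antibody lots in both gave 1 peak list for each antibody and genotype, which 2 libraries each name as their list. H3K4me3 lists of both genotypes and the wild-type MTF2 list were read over the same regions. The labels do not name the parental line of the gene-trap cells, so genotype and line cannot be told apart. There is 1 list per group, so the spread between replicates cannot be measured and no difference was tested. Intervals are exact Clopper-Pearson 95% intervals, which cover counting error over regions only.

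EZH2 is the catalytic subunit of Polycomb repressive complex 2 (PRC2), which methylates lysine 27 of histone H3 over promoters of silent developmental genes. The complex can read H3K27me3 through its subunit EED and spread the mark from places where it is recruited. MTF2 is a Polycomb-like partner of PRC2 that binds unmethylated CpG-rich DNA, and CpG islands are the usual places of PRC2 recruitment in embryonic stem cells. The study asks how MTF2 brings the complex to its targets, and where EZH2 is still called without intact Mtf2 bears on that question.

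The lists fit the labels as far as they can be checked. The promoters of 10 of 10 stem cell genes, Pou5f1 and Nanog among them, carried H3K4me3 in gene-trap and in wild-type cells, and Esrrb was the 1 of them with H3K27me3. All 6 genes chosen as markers of differentiated cells carried both marks in both genotypes, with EZH2 at the promoters of 3 of them (T, Pax6 and Cdx2) in gene-trap and of all 6 in wild-type cells. The promoters of Mtf2, Ezh2, Eed, Suz12 and Jarid2 carried H3K4me3 and neither EZH2 nor H3K27me3 in either genotype, and gene-trap MTF2 was not analysed here, so the trap itself was not checked. The gene-trap EZH2 peaks were residual in the sense that 757 of the 790 inside domains overlapped a wild-type EZH2 peak. No read counts are in the lists, so depth is unknown, and a domain without EZH2 is one where no EZH2 peak was called.

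The sequences that follow show the kind of DNA on which EZH2 remained, with every CpG in capitals. They are the plus strand of GRCm38, read from RefSeq's copy of that build. For the 3 domains with the most EZH2 peaks, all in Hox clusters, the stretch is taken from the middle of the widest EZH2 peak. The Hoxc6 stretch (chr15:103010895-103011038) lies in coding sequence of Hoxc6 and has 7 CpG in 144 bases. The Hoxd11 stretch (chr2:74681109-74681308) lies in the intron of Hoxd11 and has 5 CpG in 200 bases. The stretch of the Hoxa2 domain (chr6:52177231-52177430) lies in an intron of Hoxa3 and has 9 CpG in 200 bases.
Hoxc6, under EZH2: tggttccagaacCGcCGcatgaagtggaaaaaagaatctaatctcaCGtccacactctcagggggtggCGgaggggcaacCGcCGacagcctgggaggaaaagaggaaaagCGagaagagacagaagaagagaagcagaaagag
Hoxd11, under EZH2: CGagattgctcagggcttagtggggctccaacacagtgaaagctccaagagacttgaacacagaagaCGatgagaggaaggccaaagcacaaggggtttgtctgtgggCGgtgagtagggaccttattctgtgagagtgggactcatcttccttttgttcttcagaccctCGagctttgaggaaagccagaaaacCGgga
Hoxa2 domain, under EZH2: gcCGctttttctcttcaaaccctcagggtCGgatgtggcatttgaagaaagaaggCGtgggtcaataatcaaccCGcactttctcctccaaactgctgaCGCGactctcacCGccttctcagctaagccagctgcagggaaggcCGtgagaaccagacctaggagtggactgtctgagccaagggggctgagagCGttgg

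For comparison, the next 3 stretches are the centres of the 3 widest domains that reach a promoter and hold no EZH2. They belong to Hoxb13 (chr11:96198900-96199099, intergenic, 8 CpG), Otp (chr13:94876106-94876305, intronic, 1 CpG) and Emx2 (chr19:59466041-59466240, intergenic, 4 CpG). The single stretches overlap in CpG number between the classes. Over all regions, the central 200 bp had a median of 10 CpG (quartiles 5 and 15) in the 790 EZH2 peaks inside domains. The median was 6 (2 and 10) in the 224 domains with EZH2. In 732 domains without EZH2 on assembled chromosomes it was 3 (1 and 7). The centre of a domain need not lie on an EZH2 site, so peak and domain centres are unlike positions. Domain width was not matched either.
Hoxb13, no EZH2: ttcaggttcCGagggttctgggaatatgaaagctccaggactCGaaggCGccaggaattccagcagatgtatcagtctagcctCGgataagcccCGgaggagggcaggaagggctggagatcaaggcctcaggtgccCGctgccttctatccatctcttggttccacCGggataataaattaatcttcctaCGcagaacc
Otp, no EZH2: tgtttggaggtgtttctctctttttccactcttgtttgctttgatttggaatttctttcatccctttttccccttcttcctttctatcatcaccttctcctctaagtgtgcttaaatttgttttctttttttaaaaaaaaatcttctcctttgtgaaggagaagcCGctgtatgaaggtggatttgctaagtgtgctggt
Emx2, no EZH2: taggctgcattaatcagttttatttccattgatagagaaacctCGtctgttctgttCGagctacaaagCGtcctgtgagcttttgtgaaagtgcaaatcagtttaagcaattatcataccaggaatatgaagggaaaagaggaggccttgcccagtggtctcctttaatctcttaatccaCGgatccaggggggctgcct

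The last pair shows the contrast inside 1 domain, that of Pax7, the single-gene domain with the most bases under EZH2, which was chosen after its values were seen. The first stretch (chr4:139831969-139832168, an intron of Pax7) is the middle of its widest EZH2 peak and has 13 CpG. The second (chr4:139837186-139837385, intergenic) is the middle of the longest part of the same domain without EZH2 and has 0. Much of it is a ct-rich repeat. Over the whole Pax7 domain the density was 5.25 CpG per 100 bp under EZH2 and 1.73 in the rest. The printed pair is thus more extreme than the domain.
Pax7, under EZH2: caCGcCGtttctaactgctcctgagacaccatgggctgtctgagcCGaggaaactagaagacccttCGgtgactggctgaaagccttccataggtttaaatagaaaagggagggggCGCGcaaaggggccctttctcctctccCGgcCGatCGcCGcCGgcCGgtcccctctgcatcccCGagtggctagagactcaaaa
Pax7, rest of the domain: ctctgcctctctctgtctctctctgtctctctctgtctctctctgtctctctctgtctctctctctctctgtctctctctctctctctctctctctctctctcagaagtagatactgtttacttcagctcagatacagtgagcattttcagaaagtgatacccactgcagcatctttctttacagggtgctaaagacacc

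Width separated the classes. Domains with EZH2 ranged over 286 to 67885 bp with quartiles of 5214 and 13692 bp, and domains without ranged over 245 to 16421 bp with quartiles of 1600 and 3914 bp. The ranges overlap, and the upper quartile of the domains without EZH2 lies below the lower quartile of those with it. When the 963 domains were put into 5 classes of equal number by width, 3.11%, 3.13%, 10.9%, 25.5% and 73.6% of them held EZH2, in order from the narrowest (245 to 1607 bp) to the widest class (6833 to 67885 bp). In the widest class 142 of 193 domains held EZH2, and in each of the lowest 2 classes only 6 did.

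The same count in wild-type cells gave a higher share in every class. Of 6294 wild-type H3K27me3 domains, 70.9% held a wild-type EZH2 peak. With the same 5 ranges of width the shares in wild-type domains were 22.1%, 50.9%, 72.5%, 89.4% and 94.6%. The gene-trap share was thus furthest below the wild-type share, in percentage points, in the 2 classes just below the widest and nearest to it in the lowest class, where few wild-type domains held EZH2 either. As a ratio the gap was smallest in the widest class. Wild-type domains with EZH2 were also the wider ones, with a median of 4316 bp against 2104 bp for those without.

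**Figure D1:**
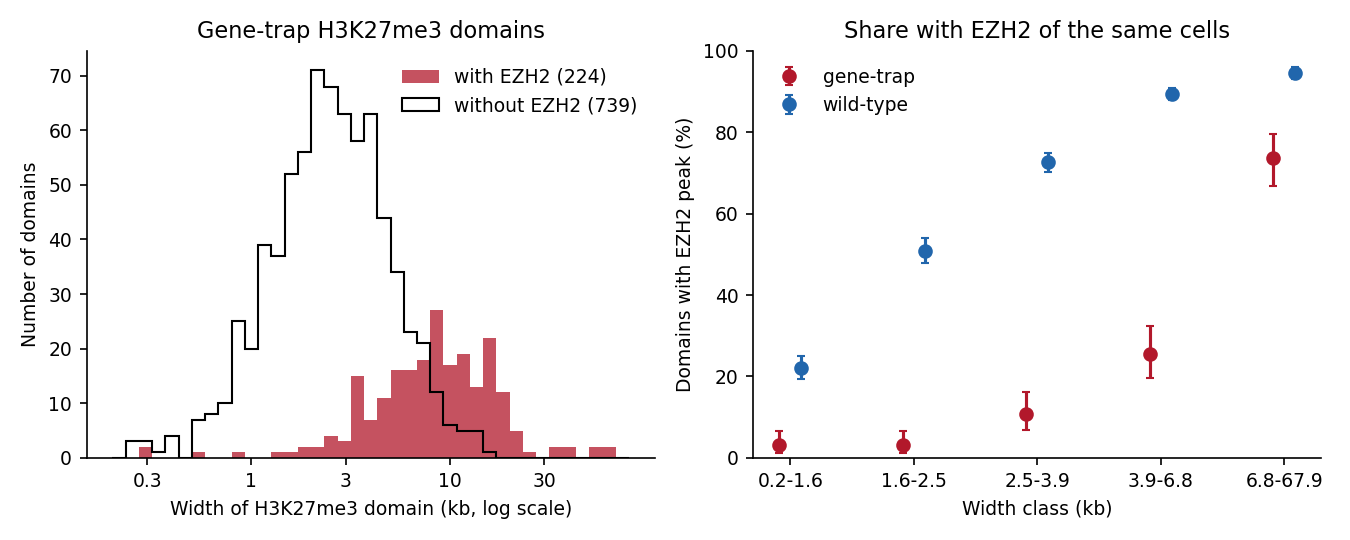
Widths of gene-trap H3K27me3 domains with EZH2 (filled, 224) and without (line, 739) on a log axis (left), and the percentage of H3K27me3 domains that hold an EZH2 peak of the same cells by width class (right). Points are shares and bars exact 95% intervals. Gene-trap shares run from 3.11% to 73.6% and wild-type shares from 22.1% to 94.6%. For wild-type domains the widest class has no upper limit.

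Within domains EZH2 was left in narrow pieces. The median gene-trap EZH2 peak was 282 bp wide, against 775 bp for wild-type EZH2 peaks, and the narrowest was 154 bp in gene-trap and 170 bp in wild-type cells. In gene-trap domains with EZH2 the peaks covered a median of 10.4% of the length (quartiles 4.86% and 17.3%), against 27.8% (18.5% and 38.9%) in wild-type domains with wild-type EZH2. Over all H3K27me3 bases, EZH2 covered 6.54% in gene-trap cells and 28.7% in wild-type cells. Peaks were also fewer, at 1.69 per 10 kb of H3K27me3 in gene-trap cells and 2.32 in wild-type cells. From the narrowest to the widest class there were 0.286, 0.201, 0.506, 0.870 and 2.67 peaks per 10 kb in gene-trap cells, against 2.05, 2.62, 2.63, 2.24 and 2.21 in wild-type cells, so that only in the widest class was the number not below that of wild-type cells. EZH2 covered 0.664%, 0.834%, 1.91%, 2.55% and 10.6% of the bases in gene-trap cells in that order, against 7.64%, 13.4%, 18.9%, 26.5% and 39.4% in wild-type cells. Cover was thus lower in gene-trap cells in all 5 classes and grew with width in both.

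The same stretches can be read in both genotypes. The 224 gene-trap domains with EZH2, which were chosen for holding at least 1 gene-trap peak, held on average 3.53 ± 3.83 of them and overlapped 3.26 ± 3.39 wild-type EZH2 peaks (SD over domains). Because of that choice the numbers do not compare the genotypes. The 739 domains without EZH2 hold no gene-trap peak by the same rule and overlapped 1.23 ± 1.12 wild-type peaks on average. Gene-trap EZH2 covered 12.9% of the bases of the 224 stretches, and wild-type EZH2 covered 70.2%. Of the 739 stretches without gene-trap EZH2, 590 overlapped a wild-type EZH2 peak, and wild-type EZH2 covered 49.0% of their bases. H3K27me3 was thus called in gene-trap cells over many places where wild-type cells had EZH2 and gene-trap cells had no EZH2 call.

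The number of EZH2 peaks per domain was uneven. A single peak was found in 79 domains, 2 peaks in 37, 3 to 5 in 66, 6 to 9 in 32, and 10 or more in 10. Those 10 domains held 171 of the 790 peaks. Peaks that were alone in their domain had a median width of 209 bp, near the narrowest in the list, and peaks of the other groups had medians of 283.5 to 315 bp. The Spearman correlation of domain width with the number of peaks was 0.69 over the 224 domains, and that with the share of length under EZH2 was 0.05. Both are descriptions across regions of 1 list. A wider domain has more room for a peak, and since all these domains hold at least 1 peak and no peak is under 154 bp wide, a narrow one is bound to have a large share under EZH2. Over all 963 domains the share of bases under EZH2 grew with width, as given above.

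**Figure D2:**
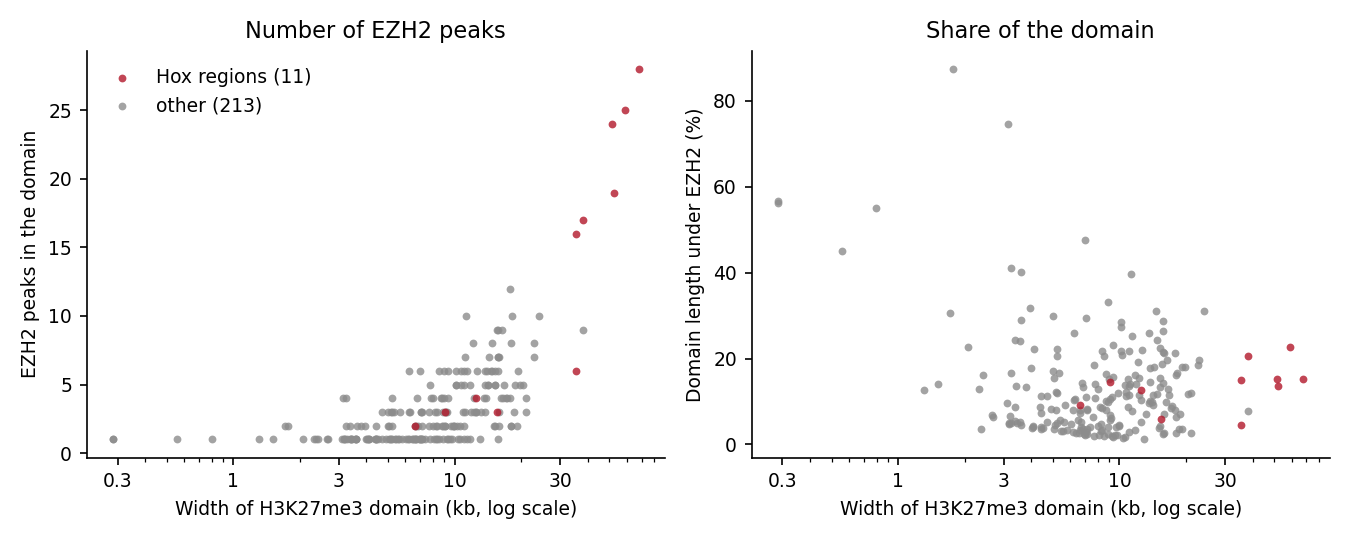
Number of gene-trap EZH2 peaks (left) and percentage of the domain length under them (right) against the width of the H3K27me3 domain on a log axis, for the 224 domains with EZH2. The 11 domains in the Hox regions (red) include the 6 with the most peaks, 16 to 28, while their share of length lies among the other 213 domains.

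Peaks lay toward the middle of domains. Each domain was divided from its edges to its centre into 5 zones of equal length. From the edge inward the zones held 10.9%, 18.5%, 21.6%, 21.9% and 25.9% of the 790 peak centres. A few peaks that crossed a domain edge had their centre outside the domain, in no zone. Of all 790 centres, 221 lay within 1 kb of a transcription start site (TSS). A further 165 lay in an exon farther away, 272 in an intron and 132 between genes. Neighbouring EZH2 peaks of 1 domain were a median of 555 bp apart. Of the 790 peaks, 771 lay wholly inside their domain and none touched more than 1 domain. The overlap rule decided few cases. The smallest overlaps that counted were 3 bp near Foxf1 and 9 bp near Fezf1, and the nearest peaks left out lay 28 bp (Tfap2d), 44 bp (Sp5) and 56 bp (Barhl2) from a domain.

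Inside a domain, EZH2 remained on its CpG-rich part. Over the 224 domains the bases under EZH2 had a median of 5.42 CpG per 100 bp (quartiles 4.10 and 6.94), and the rest of the same domain 2.74 (2.23 and 3.35). The density was higher under EZH2 in 206 of the 224 domains. The GC share was 57.9% under EZH2 and 50.4% in the rest. The trinucleotide GCG, counted on both strands (GCG or CGC) and overlapping CpG by its letters, had a median of 3.82 per 100 bp under EZH2 and 1.65 in the rest. It was found in the central 200 bp of 90.8% of EZH2 peaks inside domains, 79.5% of domains with EZH2 and 67.8% of domains without. Here too peak centres and domain centres are unlike positions.

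Part of this contrast is shared with wild-type EZH2, which also lies on CpG-rich DNA. In the 216 domains where wild-type EZH2 covered further bases, those further bases had a median of 3.56 CpG per 100 bp, between the value under gene-trap EZH2 and that of the whole rest. The density under gene-trap EZH2 was higher than in these bases in 183 of the 216 domains. Wild-type MTF2 covered 94.4% of all bases under gene-trap EZH2 and 58.4% of the remaining bases of the same domains. MTF2 had thus been called in wild-type cells over nearly all the places where EZH2 was still called when Mtf2 was trapped. Wild-type EZH2 itself covered 95.3% of the bases under gene-trap EZH2 and 66.5% of the remaining bases. The MTF2 contrast was not separated from that of wild-type EZH2.

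H3K4me3, the mark of CpG island promoters that other enzymes lay down, followed the same line. In gene-trap cells H3K4me3 covered 79.9% of the bases under EZH2 and 35.2% of the other bases of these domains, and the share under EZH2 was higher in 201 of 224 domains. Wild-type H3K4me3 over the same bases covered 66.4% and 29.5%. By domain, the median cover of gene-trap H3K4me3 was 100% under EZH2 and 39.5% in the whole rest. In the rest under wild-type EZH2 it was 57.0%, a smaller contrast. Cover was higher under gene-trap EZH2 than in those bases in 189 of 216 domains. Of the 224 domains with EZH2, 218 overlapped gene-trap H3K4me3, against 578 of the 739 without. A wider domain has more room for such an overlap. From the widest class down, the counts were 139 of 142, 49 of 49, 21 of 21, 5 of 6 and 4 of 6 with EZH2. Without EZH2 they were 45 of 51, 123 of 143, 136 of 172, 149 of 186 and 125 of 187.

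**Figure D3:**
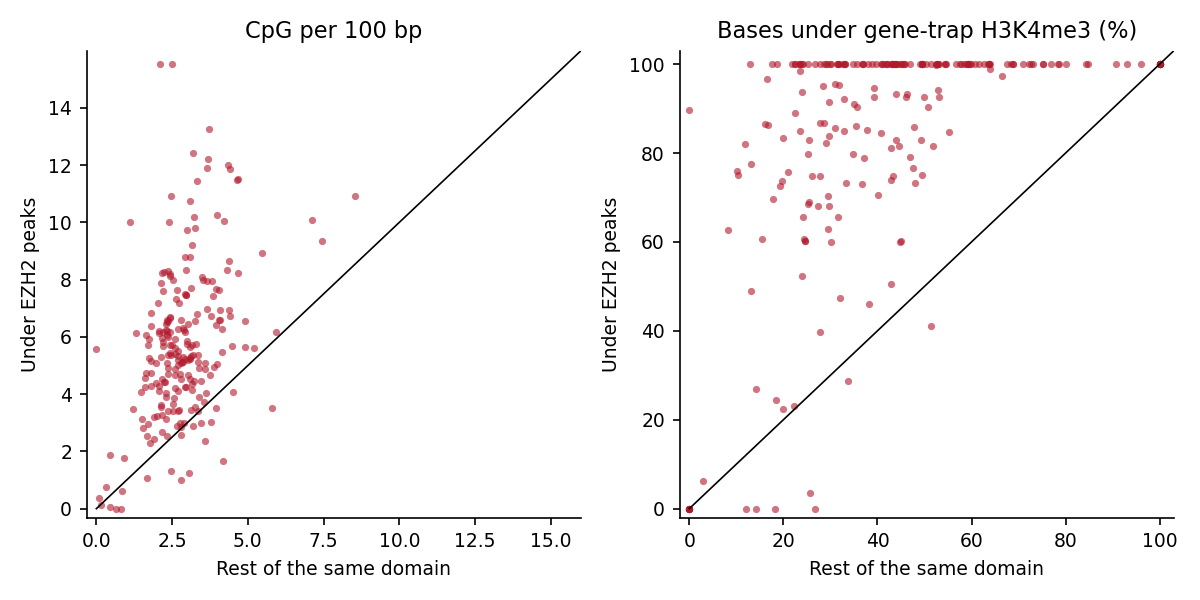
CpG per 100 bp (left) and percentage of bases under gene-trap H3K4me3 (right) in the part of each domain under gene-trap EZH2 (vertical axis) against the rest of the same domain (horizontal axis). Each point is 1 of the 224 domains and the line marks equal values; 206 points lie above it for CpG and 201 for H3K4me3.

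Whole domains differed less than their parts. Domains with EZH2 had a median of 3.15 CpG per 100 bp (quartiles 2.60 and 3.70) and domains without 2.34 (1.31 and 3.64), so that the upper quartiles nearly coincide. In the widest class the medians were 3.09 and 2.80. Wild-type MTF2 covered a median of 67.9% of domains with EZH2 and 39.8% of those without, and within the widest class 64.9% and 50.4%. Wild-type EZH2 covered a median of 74.9% and 48.7%, and within the widest class 73.6% and 57.6%. Width, MTF2 and wild-type EZH2 cover move together across domains, and their separate parts were not tested.

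Promoters were reached more often by domains with EZH2. A domain reached a promoter when it touched the window within 1 kb of a TSS of a protein-coding gene, which 191 of 224 domains with EZH2 did (85.3%, interval 79.9% to 89.6%) and 407 of 739 without (55.1%, 51.4% to 58.7%). A wider domain touches more windows. In the 3 wider classes, from the widest down, 125 of 142, 43 of 49 and 18 of 21 domains with EZH2 reached a promoter, against 29 of 51, 86 of 143 and 90 of 172 without. In the 2 narrowest classes the share was not higher with EZH2, at 3 of 6 and 2 of 6 domains, against 52.9% of 187 and 55.4% of 186 without, with too few domains with EZH2 to compare. Width was not fully matched within a class either, since the medians in the widest class were 11405 bp with and 8436 bp without EZH2. When the TSS itself had to lie in the domain the shares were 56.7% with EZH2 and 21.2% without.

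Most gene-trap domains lay over wider wild-type ones. Of 697 wild-type H3K27me3 domains that a gene-trap domain overlapped, 182 held one with EZH2. Gene-trap H3K27me3 covered a median of 72.3% of those 182 (quartiles 57.5% and 84.1%) and 35.4% of the other 515 (23.6% and 50.3%). The wild-type widths were 16704 bp for the 182 and 7430 bp for the 515. The 182 were chosen through gene-trap domains with EZH2, which were the wider gene-trap domains. The larger share under gene-trap H3K27me3 was not separated from that choice. Of the 739 gene-trap domains without EZH2, 90 lay in a wild-type domain that also held a gene-trap domain with EZH2, and in 72 the nearest EZH2 peak was within 5 kb.

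**Figure D4:**
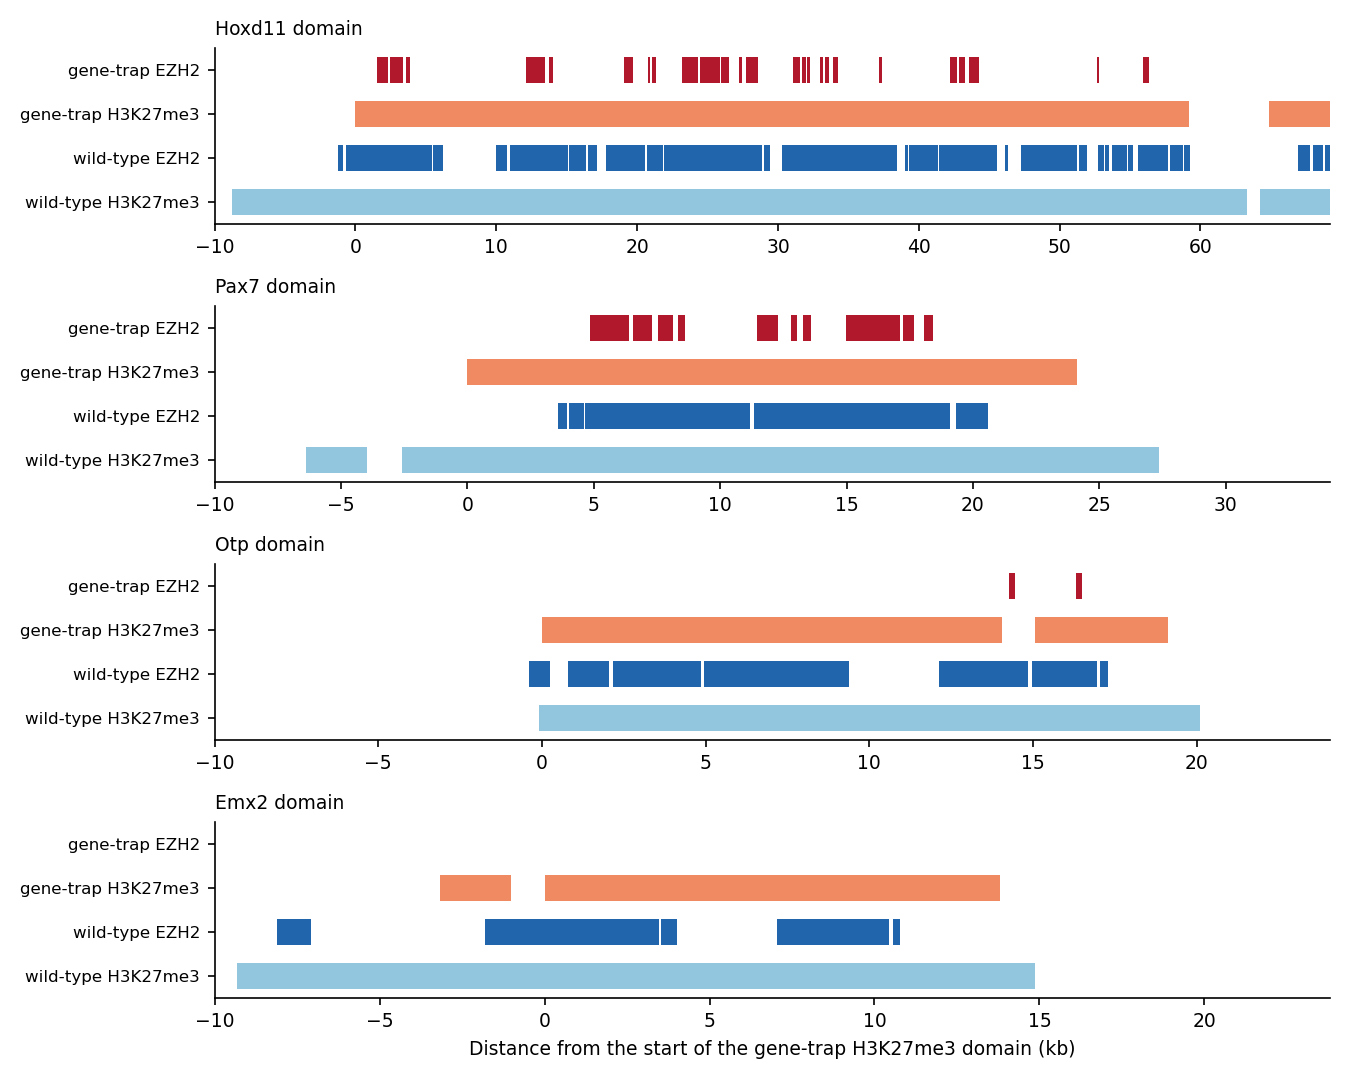
Peaks of 4 lists around 4 gene-trap H3K27me3 domains, with distance from the domain start in kb; bars are called regions and the view ends 10 kb beyond each domain. Gene-trap EZH2 appears as 25 short pieces in the Hoxd11 domain and 10 in the Pax7 domain, lies only outside the Otp domain, and has no peak around the Emx2 domain, where wild-type EZH2 is present.

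The Hox clusters, whose homeodomain factors pattern the body axis, held the domains with the most EZH2 peaks. The Hoxc6 domain (chr15:102945694-103013578), which spans Hoxc11 to Hoxc5, was the widest of all at 67885 bp and held 28 EZH2 peaks over 15.3% of its length. The domain from Evx2 to Hoxd3 (chr2:74656043-74715221), called here by Hoxd11, was 59179 bp wide with 25 peaks over 22.6%. The domain of Hoxa2 to Hoxa6 had 24 peaks, that of Hoxb4 to Hoxb9 had 19, that of Hoxa9 to Hoxa13 had 17 and that of Hoxb2 to Hoxb4 had 16. In all, 147 of the 790 peaks lay in the 4 clusters with 20 kb on either side, 44 in HoxA, 38 in HoxB, 34 in HoxC and 31 in HoxD. Without these regions 213 of 938 domains held EZH2 (22.7%), so the share over the genome did not rest on them.

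Some parts of the clusters had H3K27me3 without EZH2. Separate domains of 10625 bp at Hoxb1, 16421 bp at Hoxb13 and 4319 bp at Hoxd1, genes at or near the ends of their clusters, held none. Neither did 2 domains beside Hoxc13 of 11553 and 8920 bp. The 25 domains of the 4 regions are too few to say how this depends on their width.

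Outside the Hox clusters the domains with the most EZH2 peaks were those of Ebf3, Pax7, Otx1 and Lhx5. Ebf3, a factor of neuronal differentiation, held 12 peaks over 21.2% of 17856 bp (chr7:137307134-137324989). Pax7, which marks muscle stem cells and the dorsal neural tube, held 10 peaks over 31.1% of 24120 bp (chr4:139816014-139840133). Otx1, a homeodomain factor of the forebrain, held 10 peaks over 39.6% of 11254 bp (chr11:21989819-22001072). Lhx5, a LIM homeodomain factor of the forebrain, held 10 over 16.7% of 18181 bp. In all 4, wild-type EZH2 covered between 68.5% and 83.3% of the same stretch. By bases under EZH2 the order was another, with 4553 bp at Lhx4 and 4511 bp at Pitx1 against 3785 bp at Ebf3.

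A few small domains were covered to a larger share. The 3135 bp domain of Zic1, a zinc finger factor of the cerebellum, held 4 peaks over 74.6% of its length, and wild-type EZH2 covered all of it. The 3610 bp domain of Fgf9, a growth factor gene, held 2 peaks over 40.2%. Of the 5 largest shares among domains of at least 2 kb, the second and the third were of another kind. A domain on chromosome 13 (chr13:119596500-119603489, 47.7% under EZH2, no promoter) and one at Coil and Elobl (chr11:88967743-88970986, 41.2%) had no wild-type EZH2, were covered by gene-trap H3K4me3 over 100% of their length and had 1.12 and 0.493 CpG per 100 bp.

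The widest single EZH2 peaks inside domains lay in gene bodies. They were at Lhx4 (2244 bp, in an intron), Pax7 (2146 bp, reaching a coding exon), the homeobox gene Uncx (1944 bp, reaching a coding exon) and Emx1 (1924 bp, in an intron), at 938 to 4395 bp from the nearest TSS. Wild-type EZH2 and MTF2 covered 100% of each. The Lhx4 and Emx1 proteins are homeodomain factors of the pituitary and of the cortex.

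Some wide domains held a single small piece. The 15792 bp domain of Wnt5a, a Wnt ligand of limb and axis growth, held 1 peak of 391 bp. The 12979 bp domain of Neurog1, a proneural bHLH factor, held 1 peak of 154 bp, the narrowest width in the list. The 11369 bp domain of Cbx8, a PRC1 subunit that reads H3K27me3, held 1 peak of 875 bp, and the 11037 bp domain of Tbx4, a hindlimb factor, 1 of 330 bp. The third in order of width (11766 bp) reached no promoter and lay 76393 bp from the TSS of Nr2f2.

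Of the 10 widest domains without EZH2, 8 reached a promoter. After Hoxb13 they were those of Otp (14069 bp, hypothalamic neurons), Emx2 (13799 bp, cortex), Tbr1 (13253 bp, cortical neurons), Hmx1 (13213 bp), Ankrd63 (12817 bp), Dll4 (12427 bp, a Notch ligand) and Hand1 (11077 bp, trophoblast and heart). Wild-type EZH2 covered between 52.0% and 86.3% of these 8 stretches. At Otp 1 EZH2 peak lay 213 bp past the end of the domain, and the next 4059 bp domain held another. At Emx2, Tbr1, Hmx1, Ankrd63, Dll4 and Hand1 the nearest EZH2 peak was more than 1 Mb away, at 1955398 bp for Hmx1 and farther for the others. The other 2 of the 10 widest reached no promoter. One of them, 11930 bp on chromosome 7 near Peg12, had no wild-type EZH2 and 0.461 CpG per 100 bp.

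Seen by gene, 585 protein-coding genes had gene-trap H3K27me3 at the promoter. For 204 of them, 34.9%, the widest such domain held EZH2, and 151 of the 204 had an EZH2 peak within 1 kb of a TSS itself. In wild-type cells 4206 genes had H3K27me3 at the promoter, and for 84.0% the widest domain held wild-type EZH2. Of the 381 genes without EZH2 in their widest gene-trap domain, 355 had wild-type EZH2 over the same stretch. The domains of the 204 genes had a median width of 10811 bp, and those of the 381 genes 2573 bp.

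Gene groups differed in the share of domains that held EZH2. Among genes with gene-trap H3K27me3, the domain held EZH2 for 36 of 40 Hox genes, which share 15 domains, 54 of 67 neural regulators, 21 of 37 mesoderm and heart regulators and 9 of 18 endoderm regulators. It did so for 6 of 22 signalling ligands and inhibitors and 4 of 19 neuronal channels and receptors. Taken over all 14 lists the count was 134 of 216 genes (62.0%), and over genes in no list 70 of 369. In wild-type cells the widest domain held EZH2 for all listed members of the first 5 of these groups that had H3K27me3.

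The groups differ in domain width as well, with medians of 9347 bp for neural regulators, 6960 bp for mesoderm and heart regulators, 6216 bp for endoderm regulators, 3886 bp for signalling genes and 2006 bp for channels and receptors. Among genes whose domain was in the widest class, 83.2% held EZH2. In that class the domain held EZH2 for 35 of 38 Hox genes, which share few domains and count among the listed genes below. It did so for 43 of 51 neural regulators and 15 of 19 mesoderm and heart regulators. For endoderm regulators the count was 6 of 8 and for signalling genes 3 of 5. The share was 85.4% (77.9% to 91.1%) for listed genes and 78.6% (65.6% to 88.4%) for genes in no list, and the intervals overlap. Below the widest class the domain held EZH2 for 29 of 93 listed genes (31.2%, 22.0% to 41.6%). For genes in no list it did so for 26 of 313 (8.31%, 5.50% to 11.9%). The intervals count genes, some of which share a domain, and are no test between lists. Width was not matched there, with 43 of the 93 and 73 of the 313 genes in the class next to the widest. By class from the narrowest, the counts were 0 of 14, 0 of 12, 8 of 24 and 21 of 43 for listed genes, against 2 of 81, 2 of 85, 7 of 74 and 15 of 73 for genes in no list. The lists were chosen with results of these data known, so the gap is a description.

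**Figure D5:**
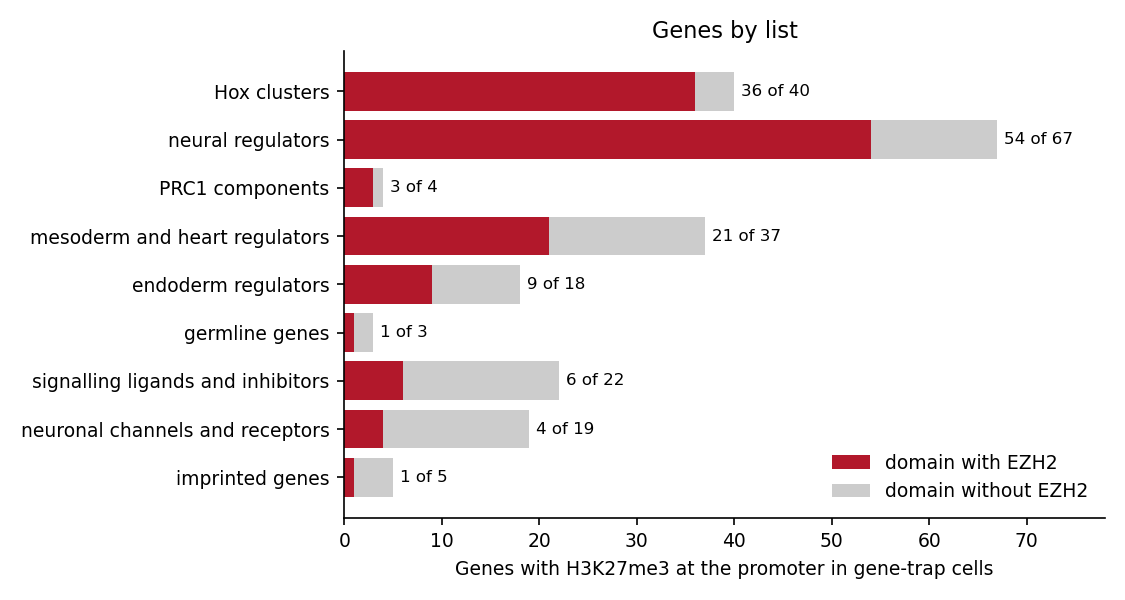
Genes with gene-trap H3K27me3 at the promoter in each list with at least 3 such genes, split by whether their widest domain held EZH2 (red) or not (grey). Counts with EZH2 run from 36 of 40 Hox genes and 54 of 67 neural regulators at the top to 4 of 19 channels and receptors and 1 of 5 imprinted genes at the bottom.

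Named members show the range within groups. Among neural regulators, Pax2, which acts in midbrain and kidney, had 8 EZH2 peaks over 19.6% of 22810 bp, next to Otp and Emx2 with none. Among mesoderm and heart regulators, Hand2 had 9 peaks over 7.76% of 38140 bp and Barx1 had 7 over 21.5% of 15713 bp, while Hand1 and Tbr1, a T-box gene of the list better known from cortical neurons, had none. Among endoderm regulators, the gut factor Nkx2-3 had 6 peaks in 19274 bp and Lhx1, also a factor of the kidney, had 8 over 16.1% of 18005 bp. The pancreatic factors Mnx1 (8475 bp) and Pdx1 (7760 bp) had none. These genes were named as the widest of each class in their list, so their split between the classes was set by that choice. The named domains without EZH2 were also the narrower ones, at 7760 bp (Pdx1) to 14069 bp (Otp). Those with EZH2 had 15713 bp (Barx1) to 38140 bp (Hand2). Whether related factors differ at like width was not tested.

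The smaller groups gave few cases. Of the signalling genes, Wnt1 had 2 peaks in 9849 bp, and Dll4 and Wnt11 (8796 bp) had none. Of the neuronal genes, Gad1, which makes GABA, had 2 peaks over 7.35% of 6664 bp and the potassium channel gene Kcnk9 had 2 over 15.5% of 5064 bp. The GABA transporter gene Slc32a1 (5363 bp) and Kcnd3 (3926 bp) had none. Of 5 imprinted genes with H3K27me3, the growth factor gene Igf2 had 2 peaks over 4.24% of 9947 bp, and Cdkn1c (5312 bp) and Dio3 (3020 bp) had none.

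Genes of the Polycomb system itself were few. Of 23 PRC1 genes 4 had gene-trap H3K27me3, and the domains of 3 held EZH2. Bmi1, which encodes a PRC1 subunit, had 4 peaks over 9.92% of 16195 bp, the widest domain of Cbx8 held the single peak given above while a second of 7055 bp at the same gene held 3 peaks over 29.4%, and the 1012 bp domain of Cbx2 had none. None of 14 genes of PRC2 and its partners and none of 30 housekeeping genes had gene-trap H3K27me3. Over all 21827 genes only 585 had it, so finding none in lists this small is near the share over all genes. The germline gene Dmrt3, also a factor of spinal neurons, had 1 peak over 24.0% of 3548 bp, and Dmrt1 (2304 bp) and Ddx4 (1964 bp) had none. Gene-trap H3K27me3 was found for 2 of 7 cell cycle inhibitors and 2 of 35 extracellular matrix and epithelial genes. It was also found for 1 of 30 pluripotency genes (Esrrb). The domains of all these genes held no EZH2.

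Outside any H3K27me3 domain lay 50 of the 840 gene-trap EZH2 peaks, and 20 of these were within 1 kb of one. They were denser in CpG than the peaks inside, with a median of 7.93 per 100 bp (quartiles 4.99 and 10.4) against 4.88 (2.87 and 6.99), and 43 of them overlapped wild-type EZH2. The widest 2, of 3661 and 1357 bp (chr17:39843708-39847368 and chr17:39847450-39848806), overlap a gene that GENCODE types as ribosomal RNA. Ribosomal RNA genes are present in many copies, so reads there cannot be placed with certainty. The next were 510 bp in an intron of Spag6, 238 bp from a domain, 431 bp between genes far from Pex2, and 426 bp at Zic2, 321 bp from the domain of that gene.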

How the data were processed

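The deposited values are region starts and ends in bp, given by the authors as BED lists without heights or p-values, so the coordinate is the only measure and depth per library is unknown. CASAVA, BWA (0.7.10-r789), MACS2 (2.7) and the build mm10 (GRCm38) are named, without role or order, per the submitters' processing notes. Their settings, the control and how libraries were combined are not given in the sources used here. "MAnorm" and "unbiased" stand in the list names only.

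Of 22 samples, the 14 libraries behind 7 lists were used and the other 8 were not analysed here. Overlaps, widths and shares were computed in Python 3.11.15 with NumPy 2.4.6 and SciPy 1.17.1, and were checked on simulated regions. Genes were the 21827 protein-coding symbols of the GENCODE M21 basic set, with windows of 1 kb around each TSS. The class of a gene is that of its widest domain. Sequence came from the RefSeq copy of GRCm38 (samtools 1.23.1). Of each central 200 bp the longest run outside untranslated regions was printed.

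Named domains followed a rule: the 10 with most EZH2 peaks, 10 widest without EZH2, 5 widest with 1 peak, 5 with the largest share under EZH2 (at least 2 kb), the 5 widest EZH2 peaks inside and outside domains, and the 2 widest per list and class. Of the 5 widest EZH2 peaks, 1 lies outside domains. The comparison, its classes and the 14 gene lists were chosen with earlier results of these data known. Some items are not reported here.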

Additional observations from a re-analysis of the deposited data

How the results depend on the processing

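The 10 shares, medians and means were recomputed under 9 alternatives, of which 1, leaving out the gene-trap domains outside wild-type domains, was chosen after seeing the data. Of 75 values, 55 stayed within the 95% interval of the reported value (for peaks per domain, within 1.5 times) and 20 did not. Domains with EZH2 were wider than those without in all 8 settings that bear on width, by 2.55 to 4.92 times, and reached promoters more often in all 10. The wild-type share of domains with EZH2 was above the gene-trap share in all 7.

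With only EZH2 peaks of at least 200 bp, the share of domains with EZH2 was 19.2% in gene-trap and 69.2% in wild-type cells, and 30.6% for genes. With only domains of at least 2 kb these were 31.3%, 80.9% and 45.1%, and the median width without EZH2 was 3471 bp. With domains under 3 kb apart merged, the median width with EZH2 was 12451.5 bp, the median share of length under EZH2 8.64%, the share of EZH2 peaks inside domains 95.8%, promoter reach without EZH2 61.6% and the wild-type share 73.5%. The share of EZH2 peaks inside domains was 96.4% when a peak within 1 kb counted. It was 91.8% without domains outside wild-type ones, with 59.3% promoter reach without EZH2. With a window of 2.5 kb that reach was 65.6%. With the TSS itself, promoter reach was 56.7% with and 21.2% without EZH2, and the share of genes 48.7%. Without the Hox regions the share of genes was 30.7%. These shifts follow from which regions or genes each setting keeps or joins.

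No paired analysis was possible because both libraries of a group share 1 list and the values come from no test. Leaving out a library is not an option with 1 list per group. The lists give no depth, so a missing EZH2 peak cannot be told from one below the threshold of the caller.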

Other observations

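The values in this part were chosen after the data were seen. Of the 224 domains with EZH2, 33 reached no promoter of a protein-coding gene. The widest lay 42748 bp from the TSS of Polg (21023 bp, 3 EZH2 peaks), 19500 bp from that of Nr2f2 (19117 bp, 2 peaks), 18023 bp from that of Hoxb13 (15482 bp, 3 peaks) and 21737 bp from that of Tfap2a (14347 bp, 7 peaks), and wild-type EZH2 covered 38.2%, 64.4%, 51.9% and 51.1% of them. Nr2f2 and Tfap2a encode factors of vessels and of the neural crest. Another, 15679 bp on chromosome 2 with 6 peaks, lay 323123 bp from the TSS of Tmco5, had wild-type EZH2 over 4.17% of its length and 0.153 CpG per 100 bp.

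Of the 963 gene-trap domains, 65 overlapped no wild-type H3K27me3 domain, and 7 of these held gene-trap EZH2. None of the 7 overlapped wild-type EZH2. Their CpG density was 0.114 to 0.831 per 100 bp in 6 of them and 3.69 in a 14775 bp domain on chromosome 13 with 8 EZH2 peaks, which reaches the promoters of the predicted genes Gm21188 and Gm36079. Among the others was the domain at Coil and Elobl. The rest included domains far from any named gene. Of these, 2 lay 169805 and 105683 bp from the nearest TSS, that of Afdn. Another lay 154681 bp from that of Speer4d and 1 lay 235073 bp from that of Snurf. These places have EZH2 and H3K27me3 calls in the gene-trap lists only, and copy number and the placing of reads in repeats were not tested.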
